A study of Homo sapiens with 8 samples.

Results

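The genes described here encode 10 ATP-dependent chromatin remodelers outside the SWI/SNF family: CHD1, CHD2, CHD3, CHD4, CHD7 and CHD8 of the CHD family, SMARCA1 and SMARCA5 of the ISWI family, and INO80 and EP400 of the INO80 family. They were chosen by symbol, as ATPases of those 3 families that are not targets of ACBI1, and all 10 were found among the 61228 genes counted. ACBI1 is a small-molecule degrader that recruits the VHL ubiquitin ligase to the SWI/SNF proteins SMARCA2, SMARCA4 and PBRM1. RNA sequencing was carried out on 2 human lung cancer lines, H1975 and HCC44. Each line had 2 libraries from cells given DMSO, the vehicle, and 2 libraries from cells given ACBI1 at 1 mM, a dose unit stated here as it is labelled, for 96 h. The 4 groups were therefore H1975 with DMSO, H1975 with ACBI1, HCC44 with DMSO and HCC44 with ACBI1, all of them labelled wild-type, a label that names no locus. Nothing in the labels says that the 2 libraries of a group came from separate cultures, so the p-values below measure the spread between these libraries, which may be technical.

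Chromatin remodelers use the energy of ATP to slide, evict, exchange or space nucleosomes, and their families differ in the domains around a shared motor. CHD proteins carry chromodomains that bind histone tails, and CHD3 and CHD4 are alternative motors of the NuRD complex, which also deacetylates histones. ISWI motors space nucleosomes evenly, whereas INO80 and EP400 complexes have been linked to the histone variant H2A.Z. SWI/SNF, the family that ACBI1 targets, opens enhancers and promoters and works on the same chromatin as these other families.

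The libraries held between 62467286 and 70455517 counts on genes, and mitochondrial genes took 5.68 to 9.02% of them. The transcripts of the ACBI1 targets SMARCA4 and PBRM1 passed the test in neither line. That of the third target, SMARCA2, fell in H1975 (log2 change -0.69, edgeR adjusted p = 0.00188) and did not pass in HCC44 (0.05, edgeR adjusted p = 0.79). These transcript levels do not check the labels, since the compound acts on protein. Levels are given as CPM, gene counts scaled to a common library size. Summed over 8 epithelial and lung markers, they were 4860 to 5070 in H1975 with DMSO, 2200 to 2660 with ACBI1, 900 to 941 in HCC44 with DMSO and 1170 to 1610 with ACBI1. The keratins KRT7, KRT8 and KRT18 made up most of each sum. The lung lineage factor NKX2-1 stood at 24.3 to 27.5 CPM in H1975 with DMSO and at most 0.0318 CPM in any HCC44 library. In H1975 with ACBI1, KRT7, KRT8, KRT18 and NAPSA fell, while EPCAM, CDH1 and NKX2-1 did not pass the test. In HCC44, KRT7 and EPCAM rose, KRT8 fell and the other markers tested did not pass. Of 8 markers of blood, endothelium and fibroblasts, CD3E and DCN were at 0 in all 8 libraries, PTPRC reached at most 0.048 CPM, and COL1A1 made up nearly all of the summed level of 25.3 to 407 CPM. Of 12 proliferation genes, 12 rose in HCC44 with ACBI1 and 2 rose in H1975, beside 17.5% and 14.6% of all genes tested. Over the other scalings, filters, thresholds and fits with no library left out, 8 to 12 of these genes were called in HCC44 and 1 to 5 in H1975. Their summed level went from 567 and 730 to 1360 and 1660 CPM in HCC44, and was 1340 and 1230 CPM with DMSO and 1440 and 1170 CPM with ACBI1 in H1975. The part of proliferation in the values below was not tested, and in bulk samples a change in the share of cells and a change in RNA per cell cannot be told apart.

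All 10 members passed the filter on low counts, so every one of them was tested. A gene is said to have risen or fallen where edgeR's quasi-likelihood F-test gave a Benjamini-Hochberg adjusted p under 0.05 over the 21307 genes tested. The CPM values are scaled by TMM factors, and all changes are log2 fold changes with their standard error (SE) and 95% confidence interval. With ACBI1, 4 members changed in H1975 (INO80 rose, and CHD3, CHD4 and CHD8 fell) against a background of 31.3% of all genes. In HCC44, 6 members changed (CHD3, SMARCA1 and INO80 rose, and CHD2, SMARCA5 and EP400 fell) against 34.9%. With library totals in place of TMM factors, 1 member rose and 1 fell in H1975, and 3 rose and 1 fell in HCC44. By direction, the background was 14.6% of genes higher and 16.7% lower in H1975, and 17.5% higher and 17.4% lower in HCC44. Among the 8423 genes with a mean above 20 CPM, a level that 9 members exceed, the shares called were 39% and 45.5%. Nothing particular to the members is read from 4 and 6 of 10 beside those shares. The median change of the 10 members was -0.07 in H1975 and -0.22 in HCC44, beside -0.0138 and 0.00603 over all genes tested. The median size of change, regardless of sign, was 0.14 and 0.35 for the members, 0.379 and 0.421 over all genes, and 0.248 and 0.278 over the genes above 20 CPM. Beside genes of that level the members' median was thus the smaller in H1975 and the larger in HCC44, and this was not tested.

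The response of CHD3 had opposite signs in the lines and was the only one of the 10 to differ between them past the threshold (3 did with library totals), against a background of 18.6% of genes (10.2% with the higher change in HCC44 and 8.4% with the lower). INO80 rose in both lines. CHD4 showed the widest fall in H1975, and CHD1 and CHD7 passed the test in neither line with all libraries in the fit. The plot of levels by library shows all 10 genes.

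**Figure D1:**
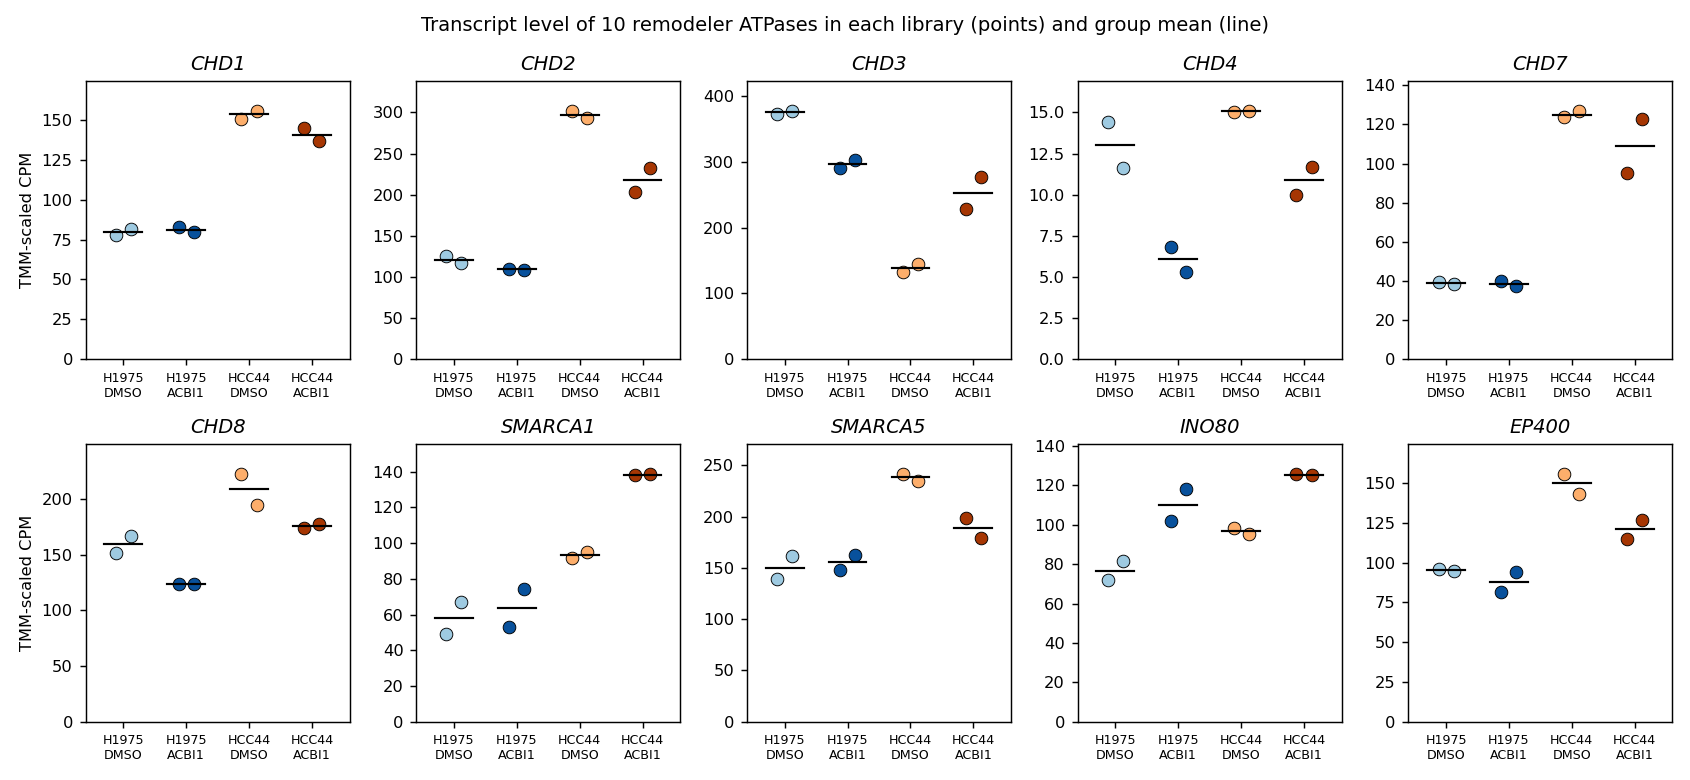
Level of each of the 10 transcripts (vertical axes, TMM-scaled CPM, each starting at 0) in the 4 groups; points are the 2 libraries of a group and lines their mean. CHD3 was at 373 and 378 CPM in H1975 with DMSO and 291 and 303 with ACBI1, but at 132 and 144 in HCC44 with DMSO and 228 and 277 with ACBI1.

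The promoters of 3 members are shown because, among the members that passed the test with ACBI1, these 3 have the longest windows before every annotated start: INO80, which rose in both lines, SMARCA1, which rose in HCC44, and EP400, which fell in HCC44. They come from RefSeq (GRCh38.p14), are written 5' to 3' along the gene's strand and stop at the first annotated transcribed base. Capitals mark CpG dinucleotides, the sites of DNA methylation. The INO80 window lies at chr15:41116355-41116530 (minus strand, 176 bases, 20 CpG), the SMARCA1 window at chrX:129523501-129523740 (minus strand, 240 bases, 15 CpG) and the EP400 window at chr12:131949692-131949919 (plus strand, 228 bases, 39 CpG); the last base of the EP400 window pairs with a G just past it.
INO80: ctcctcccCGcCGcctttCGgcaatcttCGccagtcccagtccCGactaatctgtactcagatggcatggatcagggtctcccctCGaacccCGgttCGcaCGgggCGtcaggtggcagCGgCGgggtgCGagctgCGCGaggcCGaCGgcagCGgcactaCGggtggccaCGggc
SMARCA1: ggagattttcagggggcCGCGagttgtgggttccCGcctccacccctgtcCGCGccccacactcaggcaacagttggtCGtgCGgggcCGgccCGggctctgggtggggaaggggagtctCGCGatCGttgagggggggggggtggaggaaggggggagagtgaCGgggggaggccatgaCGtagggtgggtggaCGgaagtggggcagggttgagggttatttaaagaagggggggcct
EP400: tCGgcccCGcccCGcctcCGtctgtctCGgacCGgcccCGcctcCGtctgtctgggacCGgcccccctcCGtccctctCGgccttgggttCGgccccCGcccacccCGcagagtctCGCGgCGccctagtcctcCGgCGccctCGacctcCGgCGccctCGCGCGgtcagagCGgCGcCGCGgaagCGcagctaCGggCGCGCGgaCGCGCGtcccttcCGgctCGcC
The EP400 sequence is the densest in CpG of the 3. A RefSeq promoter was matched for 9 of the 10 members. Over the 250 bases before the RefSeq start of each, the GC box GGGCGG occurred on either strand in 6 of 9 members and in 42.6% of 35116 promoters of the same length. The CCAAT letters occurred in 2 of 9 members and in 32% of promoters. These matches describe letters only and were not related to the expression values.

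CHD3 and CHD4, the alternative NuRD motors, did not move alike. In GENCODE 29 (GRCh38) CHD3 lies on the plus strand of chr17:7884806-7912760 and shares no exon with another gene. CHD3 was at 373 and 378 CPM in the H1975 DMSO libraries and at 291 and 303 with ACBI1. Both ACBI1 libraries were below both DMSO libraries, a 1.26-fold fall (log2 change -0.34, SE 0.1, interval -0.56 to -0.12, edgeR adjusted p = 0.0266). The HCC44 libraries stood at 132 and 144 CPM with DMSO and at 228 and 277 with ACBI1. Here both ACBI1 libraries were above both DMSO libraries, a 1.83-fold rise (0.88, SE 0.1, interval 0.65 to 1.10, edgeR adjusted p = 0.000108). The change in HCC44 minus that in H1975 was 1.21 (SE 0.14, interval 0.90 to 1.53, edgeR adjusted p = 0.00048). With DMSO, CHD3 was 2.73-fold lower in HCC44 than in H1975 (edgeR adjusted p = 3.89e-07), and with ACBI1 the libraries of the lines were closer, with the highest HCC44 library still below the lowest H1975 one. Without any single library the HCC44 rise stayed called (0.73 to 1.01), and so did the difference (1.07 to 1.35). The fall in H1975 did not: leaving out any 1 of the 4 H1975 libraries ended the call (edgeR adjusted p = 0.0741 to 0.192). It was also not called with library totals in place of TMM factors (-0.14, adjusted p = 0.309), a scaling that moved the median gene by 0.2 in H1975 and 0.091 in HCC44, nor by DESeq2 (-0.30, adjusted p = 0.0642), nor with GC and length trends removed (-0.27, adjusted p = 0.0503).

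CHD4 fell in H1975. It lies on the minus strand of chr12:6570082-6614524. In H1975 it was at 14.4 and 11.6 CPM with DMSO and at 6.81 and 5.32 with ACBI1, from 927, 786, 512 and 376 reads. The groups did not overlap, and the fall was 2.14-fold (log2 change -1.10, SE 0.17, interval -1.48 to -0.72, edgeR adjusted p = 0.00102). It was called without any single H1975 library as well. HCC44 had 15 and 15.1 CPM with DMSO and 10 and 11.7 with ACBI1. Both ACBI1 libraries were lower there too, but the change of -0.47 (SE 0.17, interval -0.85 to -0.09) missed the threshold in edgeR by a small margin (adjusted p = 0.0538). The same change passed in edgeR with RLE factors (adjusted p = 0.0466), with no filter on low counts (0.0322), with HCC44 fitted alone (0.0373), and without H1975 DMSO replicate 2, ACBI1 replicate 1 or ACBI1 replicate 2 (0.0415 to 0.0482), and in DESeq2 (0.0272). It did not pass without any 1 HCC44 library (0.0608 to 0.218). The difference between the lines was 0.63 (interval 0.10 to 1.17, edgeR adjusted p = 0.0959). These CHD4 counts may rest on only part of the gene. Of the bases of its longest coding transcript, 87.6% also belong to an exon of another annotated gene, mainly a same-strand gene with the Ensembl ID ENSG00000285238 that is listed at 0 counts in all 8 libraries. How reads on more than 1 gene were handled is not given in the sources used here, but 4.98 to 5.42% of all counts stood in a separate class of ambiguous reads. The level of CHD4 may thus not be comparable with that of other genes, and the part of this overlap in its change was not tested.

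The ratio of CHD3 to CHD4 reads rose in both lines. It was 25.9 and 32.6 with DMSO and 42.8 and 56.9 with ACBI1 in H1975, and 8.79 and 9.51 with DMSO and 22.8 and 23.6 with ACBI1 in HCC44. No ACBI1 library overlapped the DMSO libraries of its line, and the mean log2 ratio rose by 0.77 in H1975 and by 1.34 in HCC44. In H1975 both genes were lower with ACBI1 and CHD4 by more, while in HCC44 CHD3 was higher and CHD4 lower. A ratio taken within a library needs no scaling factor, but it shows unequal change, not which gene changed.

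For the partner lists, the background over all genes was 31.3% called in H1975, 34.9% in HCC44 and 18.6% in the difference between lines. Among genes above 20 CPM these shares were 39%, 45.5% and 26.9%, and no list was tested against them. Of 12 NuRD partners, 5 fell in H1975 (median of the list -0.18), where 16.7% of all genes fell. Those named by the size of their change were MBD2, the methyl-CpG binding subunit, at 65.9 and 70.7 CPM with DMSO and 44.9 and 45.6 with ACBI1 (-0.59, edgeR adjusted p = 0.000846), and the deacetylase HDAC1, at 119 and 116 against 95.3 and 89.9 (-0.35, edgeR adjusted p = 0.0105). For both genes the ACBI1 libraries lay below the DMSO libraries, which the rule for naming partners requires, so it adds nothing to the calls. The count was 1 without any 1 of the 4 H1975 libraries, 2 without either HCC44 DMSO library and 2 by DESeq2, with RLE or with upper-quartile factors, and 3 with no filter on low counts. With library totals 2 partners rose and 1 fell, so the one-sided split in H1975 depends on the scaling. In HCC44, 2 partners rose and 2 fell (median 0.05). MTA3, a scaffold subunit, went from 30.4 and 32 to 49.7 and 54.9 CPM (0.75, edgeR adjusted p = 0.000378). GATAD2B, a subunit that bridges the MBD proteins to the motor, went from 142 and 152 to 90.9 and 110 CPM (-0.55, edgeR adjusted p = 0.00168), and MBD2 fell by 0.51 as in H1975. CDK2AP1, a small NuRD subunit, fell in H1975 (-0.30, edgeR adjusted p = 0.0422) and rose in HCC44 (0.33, edgeR adjusted p = 0.0254). Its responses differed by 0.62 (edgeR adjusted p = 0.012), and those of MTA3 by 0.55 (edgeR adjusted p = 0.0271). These were the 2 partners called in that comparison, and 0 to 2 of the list were called when 1 library was left out, with 0 without H1975 ACBI1 replicate 2.

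Among the remaining CHD genes, CHD2 and CHD8 each changed in 1 line. CHD1 recognizes the histone mark of active promoters and moves along transcribed genes. CHD1, on the minus strand of chr5:98853985-98928957, was at 77.7 and 81.7 CPM with DMSO and 82.7 and 79.8 with ACBI1 in H1975, where the groups overlapped. HCC44 had 151 and 156 CPM with DMSO and 145 and 137 with ACBI1. The changes were 0.03 (interval -0.15 to 0.21, edgeR adjusted p = 0.838) and -0.13 (interval -0.31 to 0.05, edgeR adjusted p = 0.26).

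CHD2 is the closest relative of CHD1. Of the bases of its longest coding transcript, 16.8% also belong to a same-strand exon of another annotated gene, and the part of this overlap in its counts was not tested. CHD2 is placed on the plus strand of chr15:92900189-93028005. In HCC44 it was at 302 and 293 CPM with DMSO and at 203 and 232 with ACBI1. This was a 1.37-fold fall with no overlap (-0.45, SE 0.089, edgeR adjusted p = 0.00275), called without any single HCC44 library as well. In H1975 the libraries were at 125 and 117 CPM with DMSO and 110 and 108 with ACBI1. The ACBI1 libraries were lower, but the change of -0.15 missed the threshold (edgeR adjusted p = 0.22), and with library totals its sign turned (0.05). The difference between the responses, -0.30, was not called (interval -0.57 to -0.02, edgeR adjusted p = 0.13), but passed with library totals (-0.41, adjusted p = 0.0399).

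CHD7 acts at enhancers and is mutated in CHARGE syndrome. The CHD7 gene spans chr8:60678778-60868028 on the plus strand. In H1975 it was at 39.6 and 38.5 CPM with DMSO and 39.7 and 37.6 with ACBI1, and the groups overlapped (-0.01, interval -0.27 to 0.24, edgeR adjusted p = 0.944). The HCC44 values were 124 and 127 CPM with DMSO and at 95.2 and 123 with ACBI1. The 2 ACBI1 libraries of HCC44 lay further apart than any other pair for this gene, and the change of -0.20 was not called (edgeR adjusted p = 0.203). Without HCC44 ACBI1 replicate 2 it was called (-0.40, edgeR adjusted p = 0.0151).

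CHD8 represses beta-catenin target genes, and its loss of function is linked to autism. It lies on the minus strand of chr14:21385194-21456126. In H1975 it was at 152 and 167 CPM with DMSO and at 124 in both ACBI1 libraries. The groups did not overlap, and the fall was 1.29-fold (-0.37, SE 0.092, edgeR adjusted p = 0.0121). That call was lost without H1975 DMSO replicate 2, ACBI1 replicate 1 or ACBI1 replicate 2 (edgeR adjusted p up to 0.157) and with library totals (-0.16, adjusted p = 0.205). HCC44 had 223 and 195 CPM with DMSO and 174 and 178 with ACBI1. Both ACBI1 libraries were lower again, and the change of -0.25 did not pass (interval -0.45 to -0.04, edgeR adjusted p = 0.0601). The difference between the lines was 0.12 (interval -0.17 to 0.41, edgeR adjusted p = 0.578).

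**Figure D2:**
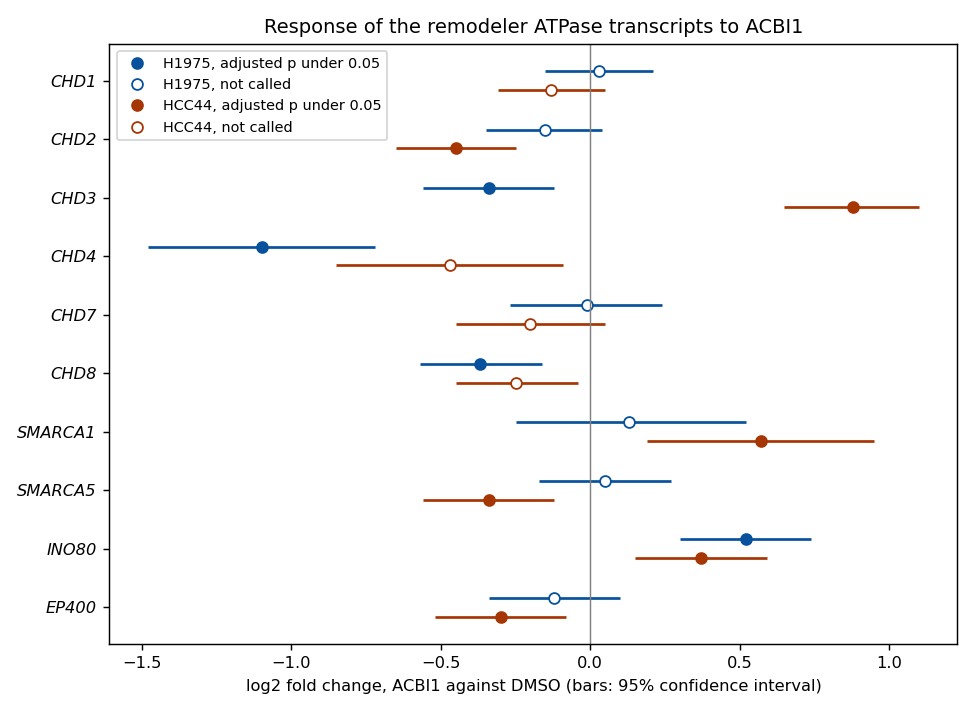
Log2 fold change of each transcript, ACBI1 against DMSO (horizontal axis), with its 95% confidence interval (bars), in H1975 (blue) and HCC44 (red); filled points passed an adjusted p of 0.05 and open points did not. CHD3 has its H1975 point at -0.34 and its HCC44 point at 0.88, on opposite sides of 0, while INO80 lies above 0 in both lines (0.52 and 0.37).

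The plot of fold changes with their intervals sets the lines side by side: besides CHD3, the 2 intervals of every member overlap. The H1975 points of CHD1, CHD7 and SMARCA5 lie within 0.05 of no change, and those of CHD2, CHD7 and EP400 take the other sign with library totals.

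The ISWI motors SMARCA1 and SMARCA5 moved in opposite directions in HCC44. SMARCA1 (SNF2L) lies on the minus strand of chrX:129446501-129523500, shares no exon with another annotated gene, and was 1 of the 3 members to rise in HCC44. It was at 91.5 and 95 CPM with DMSO and at 138 and 139 with ACBI1. These groups stood well apart, with a 1.48-fold rise (0.57, SE 0.17, interval 0.19 to 0.95, edgeR adjusted p = 0.0275). Without any 1 of the 4 HCC44 libraries the change was 0.54 to 0.60 and missed the threshold (edgeR adjusted p = 0.0953 to 0.127). In H1975 the libraries were at 49 and 67 CPM with DMSO and 53 and 74.1 with ACBI1. There the groups overlapped, replicate 1 was the lower library of each, and the change was 0.13 (interval -0.25 to 0.52, edgeR adjusted p = 0.6). The difference between the lines was 0.44 (interval -0.10 to 0.98, edgeR adjusted p = 0.25), and it passed with no filter on low counts (adjusted p = 0.0315).

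SMARCA5 (SNF2H), the more widely expressed of these motors, lies on the plus strand of chr4:143513463-143557486. In HCC44 it was at 242 and 235 CPM with DMSO and at 199 and 179 with ACBI1. It fell 1.26-fold without overlap (-0.34, SE 0.099, interval -0.56 to -0.12, edgeR adjusted p = 0.0217). The call was lost without HCC44 DMSO replicate 1, DMSO replicate 2 or ACBI1 replicate 2 (edgeR adjusted p up to 0.124) and with library totals (-0.25, adjusted p = 0.0769). In H1975 it was at 139 and 162 CPM with DMSO and 148 and 163 with ACBI1, and the groups overlapped (0.05, interval -0.17 to 0.27, edgeR adjusted p = 0.754). The difference between the lines, -0.39, had an interval of -0.69 to -0.08 and missed the threshold (edgeR adjusted p = 0.0805). It passed without H1975 DMSO replicate 2 (-0.55, edgeR adjusted p = 0.0344), with library totals (-0.50, adjusted p = 0.0297) and with GC and length trends removed (-0.46, adjusted p = 0.0299). Of the bases of its longest coding transcript, 14.3% overlap genes on the other strand, of which the antisense gene SMARCA5-AS1 held 38 to 71 counts. The strand setting of the counting is not given in the sources used here.

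Within each library, the ratio of SMARCA1 to SMARCA5 reads was 0.351 and 0.415 with DMSO and 0.357 and 0.456 with ACBI1 in H1975. In HCC44 it was 0.378 and 0.404 with DMSO and 0.694 and 0.774 with ACBI1. The HCC44 DMSO libraries thus lay within the range of the H1975 DMSO libraries, and the HCC44 ACBI1 libraries stood above all 6 others. The mean log2 ratio rose by 0.91 in HCC44 and by 0.08 in H1975.

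**Figure D3:**
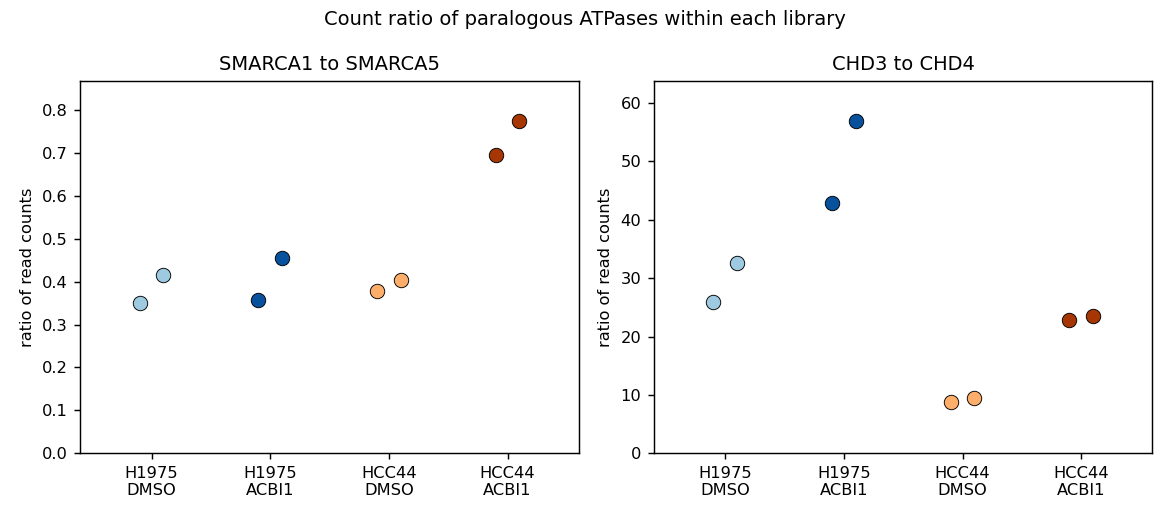
Ratio of read counts of 2 related ATPases within each library (vertical axes, starting at 0), SMARCA1 to SMARCA5 on the left and CHD3 to CHD4 on the right; each point is 1 library. The SMARCA1 to SMARCA5 ratio is 0.694 and 0.774 in HCC44 with ACBI1 and at most 0.456 elsewhere, whereas the CHD3 to CHD4 ratio is higher with ACBI1 in both lines. The CHD4 counts may rest on only part of the gene.

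The ratios plotted by library show both pairs. Of 9 ISWI partners, 4 fell in H1975 (median of the list -0.17) and 2 fell in HCC44 (median -0.06). Over all genes, 16.7% fell in H1975 and 17.4% in HCC44. BAZ2B, a bromodomain protein related to the BAZ subunits of ISWI complexes, was at 38 and 39.4 CPM with DMSO and 24.2 and 26.3 with ACBI1 in H1975 (-0.62, edgeR adjusted p = 0.00256). BAZ2B in HCC44 was at 53.2 and 49 CPM with DMSO and 23.7 and 28.3 with ACBI1 (-0.98, edgeR adjusted p = 0.000119). RSF1, the partner of SMARCA5 in the remodeling and spacing factor, fell by 0.33 in H1975 (edgeR adjusted p = 0.0399) and by 0.34 in HCC44 (edgeR adjusted p = 0.0301). The H1975 count was 1 or 2 without any 1 of the H1975 libraries, 2 without either HCC44 DMSO library, 2 with RLE factors and 1 by DESeq2 or with GC and length trends removed. The split also depends on the scaling: 1 rose and 2 fell with upper-quartile factors, and 1 rose and 1 fell with library totals. In HCC44, 1 rose and 2 fell with upper-quartile factors and 1 rose and 1 fell with library totals. The HCC44 count was 1 without HCC44 DMSO replicate 1, DMSO replicate 2 or ACBI1 replicate 1, and with GC and length trends removed.

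INO80 rose in both lines. The gene lies on the minus strand of chr15:40978880-41116354, and its promoter sequence is the first of those printed above. INO80, the motor of the complex of that name, which slides nucleosomes at promoters and replication forks, was at 71.8 and 81.6 CPM with DMSO and 102 and 118 with ACBI1 in H1975. The HCC44 libraries were at 98.4 and 95.5 CPM with DMSO and 126 and 125 with ACBI1. Both ACBI1 libraries lay above both DMSO libraries in each line, a 1.43-fold rise in H1975 (0.52, SE 0.099, edgeR adjusted p = 0.00276) and a 1.29-fold rise in HCC44 (0.37, SE 0.098, edgeR adjusted p = 0.0133). The H1975 rise was called without any single H1975 library (0.43 to 0.66). The HCC44 call was lost without DMSO replicate 1 or DMSO replicate 2 (0.35 to 0.39 over the 4 HCC44 libraries, edgeR adjusted p up to 0.0901). The difference between the lines was -0.15 (interval -0.46 to 0.16, edgeR adjusted p = 0.507).

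Of 14 other subunits of the INO80 complex, 4 rose in H1975 (median of the list 0.00), and 2 rose and 3 fell in HCC44 (median 0.06). Over all genes, 14.6% rose in H1975, and 17.5% rose and 17.4% fell in HCC44. INO80C was at 5.3 and 5.1 CPM with DMSO and 8.91 and 9.81 with ACBI1 in H1975 (0.85, edgeR adjusted p = 0.00178). ACTR5, an actin-related protein of the complex, was at 16.1 and 14 against 23 and 19.5 (0.50, edgeR adjusted p = 0.0166). With library totals 6 partners were called in H1975 in place of 4, so this count depends on the scaling. The count in H1975 was 1 without H1975 DMSO replicate 2 or ACBI1 replicate 1, and 2 without ACBI1 replicate 2. In HCC44, the DNA-binding factor YY1 went from 338 and 337 to 444 and 445 CPM (0.40, edgeR adjusted p = 0.00235), and the ATPase RUVBL1 rose by 0.40 (edgeR adjusted p = 0.0032). TFPT went from 33.2 and 30.9 to 22.5 and 21.8 CPM (-0.53, edgeR adjusted p = 0.00273), and ACTL6A, an actin-related protein also found in SWI/SNF, fell by 0.45 (edgeR adjusted p = 0.00368). The responses of INO80C (-0.72), TFPT (-0.65) and YY1 (0.46) differed between the lines at edgeR adjusted p = 0.0355, 0.0128 and 0.0146. The complex thus had 4 of 14 partners called in that comparison, and 0 to 3 when 1 library was left out, with 0 without H1975 ACBI1 replicate 2 or HCC44 DMSO replicate 1.

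EP400, the motor that exchanges H2A.Z within the TIP60 acetyltransferase complex, fell in HCC44. It lies on the plus strand of chr12:131949920-132081102. In HCC44 it was at 156 and 143 CPM with DMSO and at 115 and 127 with ACBI1. The groups did not overlap, and the fall was 1.23-fold (-0.30, SE 0.099, interval -0.52 to -0.08, edgeR adjusted p = 0.0358). The call was lost without HCC44 DMSO replicate 1, DMSO replicate 2 or ACBI1 replicate 1 (edgeR adjusted p up to 0.212). DESeq2 did not make it (-0.31, adjusted p = 0.0517), and neither did library totals (-0.21, adjusted p = 0.118), upper-quartile factors (-0.25, adjusted p = 0.0641) or the fit with GC and length trends removed (-0.22, adjusted p = 0.0674). In H1975 EP400 was at 96.2 and 94.7 CPM with DMSO and 81.3 and 94.4 with ACBI1. ACBI1 replicate 2 lay just under the DMSO libraries, and the change was -0.12 (interval -0.34 to 0.10, edgeR adjusted p = 0.396). The responses differed by -0.18 (interval -0.49 to 0.13, edgeR adjusted p = 0.414).

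Of 13 partners of EP400 in the TIP60 complex, 3 rose and 5 fell in H1975 (median of the list -0.14), beside 14.6% and 16.7% of all genes. YEATS4, a reader of acetylated histones, was at 17.6 and 18.7 CPM with DMSO and 26.1 and 27.1 with ACBI1 (0.55, edgeR adjusted p = 0.00252). MRGBP rose by 0.33 (edgeR adjusted p = 0.0202). DMAP1 went from 16.2 and 11.3 to 8.5 and 6.25 CPM (-0.90, edgeR adjusted p = 0.00462), and EPC2, a scaffold subunit, from 28.4 and 34.4 to 18.8 and 20.4 (-0.68, edgeR adjusted p = 0.00175). The H1975 count was 5 in place of 8 without any 1 of the 4 H1975 libraries, and with library totals 4 rose and 3 fell. In HCC44 the 2 partners called were MRGBP (0.46, edgeR adjusted p = 0.00324) and YEATS4 (0.32, edgeR adjusted p = 0.0305), both higher as in H1975. That count was 1 by DESeq2, with no filter on low counts and without HCC44 DMSO replicate 1, HCC44 DMSO replicate 2, HCC44 ACBI1 replicate 2 or either H1975 ACBI1 library. EPC2 was at 36 and 34.5 CPM with DMSO and 35.8 and 34.7 with ACBI1 in HCC44, and was the 1 partner whose response differed between the lines (0.68, edgeR adjusted p = 0.0174). Without either HCC44 DMSO library no partner passed in that comparison, and 2 passed without H1975 DMSO replicate 2, H1975 ACBI1 replicate 2 or HCC44 ACBI1 replicate 2.

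**Figure D4:**
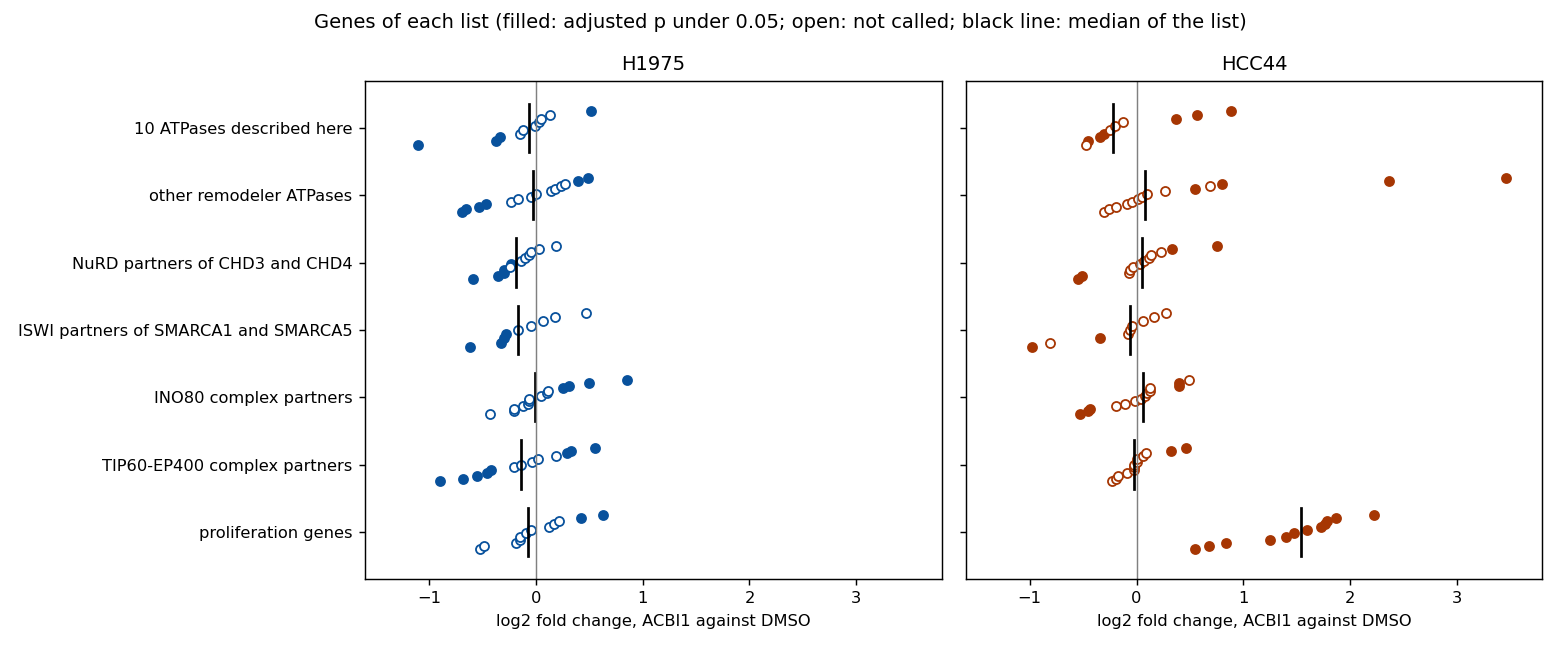
Log2 fold change with ACBI1 (horizontal axes) of the 10 ATPases, of 14 other remodeler ATPases, of the partner lists and of 12 proliferation genes, in H1975 (left) and HCC44 (right); each point is a gene, filled where its adjusted p was under 0.05, and the black line is the median of the list. The medians of the ATPase and partner lists lie between -0.22 and 0.08, and the proliferation genes have a median of 1.53 in HCC44 and -0.07 in H1975.

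The plot of fold changes by list also holds 14 other remodeler ATPases. In H1975, 2 of them rose and 4 fell (median -0.02), beside 14.6% and 16.7% of all genes. HELLS, a remodeler needed for DNA methylation, was at 38.1 and 33.9 CPM with DMSO and 50.6 and 50.4 with ACBI1 (0.49, edgeR adjusted p = 0.00425), and HLTF, which acts at stalled replication forks, rose by 0.39 (edgeR adjusted p = 0.0128). SMARCA2, a target of ACBI1, went from 60.5 and 70.7 to 40.3 and 41.1 CPM (-0.69, edgeR adjusted p = 0.00188), and ERCC6, the Cockayne syndrome repair ATPase, from 42.7 and 48.8 to 28.1 and 30.1 (-0.65, edgeR adjusted p = 0.0014). CHD6 (-0.53) and ATRX (-0.47) were the other 2 that fell. With library totals 4 rose and 3 fell. A fit with a term for replicate number and with GC and length trends removed called 4 rises and 4 falls. In HCC44, 4 rose (median 0.08), beside 17.5% of all genes. With a term for replicate number the HCC44 count was 8, so the counts of this list depend on the fit. CHD5, a NuRD motor best known from neural tissue, went from 0.525 and 0.564 to 6.18 and 5.81 CPM, an 11-fold rise from a very low level (3.46, edgeR adjusted p = 2.54e-05). RAD54L, a motor of homologous recombination, went from 2.46 and 3.09 to 12.1 and 16.6 CPM (2.36, edgeR adjusted p = 2.66e-05), with 25.9% of its longest coding transcript overlapping LRRC41 on the other strand. HELLS rose by 0.80 (edgeR adjusted p = 0.000169) and HLTF by 0.55 (edgeR adjusted p = 0.00168), as in H1975. The responses of CHD5 (3.21), RAD54L (2.41) and SMARCA2 (0.74) differed between the lines at edgeR adjusted p = 0.00105, 0.000587 and 0.0136. In the NuRD family CHD5 and CHD3 thus both rose in HCC44, while CHD4, with the limit on its counts given above, was lower there without passing the test.

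With DMSO alone, 9 of the 10 members differed between HCC44 and H1975. The background was 67.9% of genes (31.6% higher and 36.4% lower in HCC44), and 74.4% of those above 20 CPM. Of the members, 8 were higher in HCC44, and the widest gap was that of CHD7, at 124 and 127 CPM against 39.6 and 38.5 (1.68, edgeR adjusted p = 3.25e-07). The gaps were 1.29 for CHD2, 0.95 for CHD1, 0.69 for SMARCA1, 0.67 for SMARCA5, 0.65 for EP400, 0.39 for CHD8 and 0.34 for INO80. Some of these sizes depend on the processing. Over the other scalings, filters and fits the gap was 0.63 to 0.96 for CHD1, 0.49 to 0.69 for SMARCA1 and 0.38 to 0.68 for SMARCA5. The calls of these genes did not change. CHD3 was the 1 member lower in HCC44 (-1.45), and CHD4 did not pass (0.21, edgeR adjusted p = 0.289). The INO80 call was lost without H1975 DMSO replicate 1 or HCC44 DMSO replicate 1 (edgeR adjusted p up to 0.105) and with library totals (0.22). The members' median was 0.66, beside -0.0834 over all genes.

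Levels of different genes were compared per kilobase of exon (CPM per kb, over all GENCODE 29 exons of a gene, mean ± SD, n = 2). With DMSO in H1975, CHD3 led at 38.5 ± 0.42, followed by SMARCA5 at 17.9 ± 1.9, SMARCA1 at 13.3 ± 2.9 and INO80 at 10.9 ± 0.98. CHD1, CHD8 and CHD2 followed at 7.64, 7.62 and 7.15, then EP400 at 5.1, CHD7 at 2.3 and CHD4 at 1.02. In that order SMARCA1 and INO80, CHD1 and CHD8, and CHD8 and CHD2 overlapped between libraries. In HCC44 with DMSO, SMARCA5 led at 28.5 ± 0.61, followed by SMARCA1 at 21.4 ± 0.57 and CHD2 at 17.5 ± 0.36. CHD1 at 14.7, CHD3 at 14.1 and INO80 at 13.8 came next, where CHD3 overlapped both neighbours, before CHD8 at 9.97, EP400 at 8 and CHD7 at 7.38.

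With ACBI1 the order changed in HCC44 more than in H1975. In HCC44 SMARCA1 led at 31.7 ± 0.15 CPM per kb, ahead of CHD3 at 25.9 ± 3.6 and SMARCA5 at 22.5 ± 1.6, whose libraries overlapped, so SMARCA5 went from the first place to the third and CHD3 from the fifth to the second. INO80 stood at 17.9, CHD1 at 13.5 and CHD2 at 12.8, the last pair overlapping. In H1975 CHD3 still led at 30.4 ± 0.84, ahead of SMARCA5 at 18.5 ± 1.2, while INO80 at 15.7 ± 1.6 and SMARCA1 at 14.6 ± 3.4 overlapped. CHD4 was last in all 4 groups, at 0.477 to 1.18, with the limit on its counts given above. The order depends on the length used: per kilobase of the longest coding transcript, CHD8 held the third place rather than the sixth in H1975 with DMSO, and CHD2 at 31.8 ranked above SMARCA5 at 30.1 in HCC44 with DMSO. In HCC44 with ACBI1, CHD3 at 34.4 ± 4.7 then stood above SMARCA1 at 33.8 ± 0.16, with overlapping libraries, so that CHD3 went from the sixth place to the first and SMARCA5 from the second to the third.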

How the data were processed

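RNA was counted per gene in 8 libraries. The deposited tables hold raw read counts, which the authors made with TopHat2 2.1.1 and HTSeq 0.11.0 on the hg38 build, per the submitters' processing notes; the annotation release, counting mode and strand setting are not given in the sources used here. The 5 summary rows of each table (14.3 to 15.8% of its total) were left out.

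Counts were scaled with TMM factors, filtered with filterByExpr on the 4 groups (21307 genes kept) and fitted in edgeR 4.0.16 (robust quasi-likelihood, R 4.3.3) with 1 mean per group over all 8 libraries, which leaves 4 residual degrees of freedom. Contrasts were tested two-sided with Benjamini-Hochberg adjustment over all genes tested; the fit was tested on simulated data. Other scalings and filters, DESeq2 1.42.0, a replicate block, removal of GC and length trends and leaving out each library were tried. Gene lengths and overlaps came from GENCODE 29, which holds 93.2% of the gene names. The 10 members are named throughout. From each list, up to 2 rises and 2 falls per comparison are named, the largest among called genes whose groups do not overlap and whose mean reaches 5 CPM in a group of the line (of each line, for the difference); any other ATPase may be named. The members and lists were chosen with earlier results of these data known. Replicate pairs differed by more than sampling noise (chi-square per degree of freedom 21.7 to 43.5).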

Additional observations from a re-analysis of the deposited data

Results flagged for a closer look

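The response of CHD3 to ACBI1 differed between the lines by 1.21 on the log2 scale (HCC44 minus H1975, edgeR adjusted p = 0.00048 for the interaction contrast), as a fall in both H1975 ACBI1 libraries and a rise in both HCC44 ACBI1 libraries. The summed level of the proliferation genes moved with the HCC44 change, and its part in it was not tested.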

How the results depend on the processing

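The libraries hold 62467286 to 70455517 gene counts, so the limit for these genes is the 2 libraries per group rather than depth, apart from CHD4 with 376 to 963 counts. Of the members' log2 changes under the alternatives, 681 kept their direction and side of the threshold, 25 gained a call, 37 lost one and 17 turned sign; of the counts of list genes called, 261 stayed within 1.5 times the reported count and 93 did not. The 681 include changes called in neither fit, and fits that left out a library of the other line. The count called in H1975 (4) became 2 with library totals, 2 at an adjusted p under 0.01, and was lower without any 1 H1975 library. The count in HCC44 (6) became 2 at an adjusted p under 0.01 and was lower without any 1 HCC44 library. The count differing between the lines (1) became 3 with library totals, 2 with no filter on low counts, 2 with GC and length trends removed, and 1 to 2 without 1 library. For these 3 counts the cause was not tested, beyond the fewer samples and the stricter threshold. The count between the DMSO groups (9) stayed at 8 or 9.

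Library totals moved the median gene by 0.2 in H1975, 0.091 in HCC44, -0.11 for the difference and -0.12 between the DMSO groups. The sign changes were all in H1975 and none was called: with library totals CHD2 (0.05), CHD7 (0.19) and EP400 (0.08); for CHD7 also 0.02 with RLE factors, 0.06 with upper quartiles, 0.01 with a filter of 1 CPM in 2 libraries, 0.02 by DESeq2, 0.09 with GC and length trends removed, and -0.02 to 0.05 without 1 library. Without 1 library CHD1 ranged from -0.01 to 0.11, SMARCA1 from -0.11 to 0.43, SMARCA5 from -0.06 to 0.21 and EP400 from -0.21 to 0.02.

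The labels do not say that a replicate number marks a shared batch. Same-numbered libraries deviated together with a correlation of 0.374 in H1975 and 0.109 in HCC44. With the replicate block, 4 members were called in H1975, 8 in HCC44 and 4 in the difference between the lines. The block added CHD4 (adjusted p = 0.00767) and CHD8 (0.0239) in HCC44, and CHD4 (0.63, adjusted p = 0.017), SMARCA1 (0.44, 0.00551) and SMARCA5 (-0.39, 0.0106) in the difference. With the replicate block and GC and length trends removed these were 6, 7 and 5, and CHD7 in H1975 was at 0.09. The members added in H1975 by that fit were SMARCA1 (0.25, edgeR adjusted p = 0.0073) and SMARCA5 (0.19, edgeR adjusted p = 0.0378), both higher with ACBI1. The blocked fit could not be made between the DMSO groups.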
